A study of Mus musculus with 21 samples.

Results

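The genes described here are 10 markers and regulators of the cadherin switch and of epithelial-mesenchymal transition (EMT): Cdh1, Cdh2, Epcam, Ocln, Vim, Zeb1, Zeb2, Snai1, Snai2 and Twist1. They were taken by symbol from the deposited table of raw counts, which held all 10 among its 33861 genes. The rule names them by symbol and has no threshold on a measured value, but the names were chosen with earlier results of these data known. The study measured RNA in mouse pluripotent cells in culture and in the epiblast, the embryonic tissue such cells model. Cultured samples held 1000 cells each and every epiblast was collected on its own.

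The cultured groups were formative stem cells of the lines FS1 (passages 10, 11 and 18) and FS2 (passages 12, 13 and 16), both in the medium A3XR. The others were epiblast stem cells (EpiSCs) of the line E14, grown either in the medium AF or in the medium AFX (passages 14, 15 and 16 of each). Formative stem cells are held between the naive state of embryonic stem cells and the primed state of EpiSCs. The epiblasts were 3 embryos each at E5.0, E5.5 and E6.0 (embryonic days 5.0, 5.5 and 6.0). Another label field calls the last stage E6.5, and the name in the titles is kept here. No genetic alteration is stated for any group. Replicates of a culture are passages of 1 line, not separate derivations, so their p-values measure the spread between passages, and for FS (both lines together, 6 samples) also between 2 lines. FS and EpiSCs differ in line and medium at once, and these cannot be told apart. Culture, the amount of input and the line likewise cannot be told apart from the epiblast comparison.

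Cdh1 encodes E-cadherin, which joins epithelial cells at adherens junctions, and Cdh2 encodes N-cadherin, typical of mesenchymal and neural cells. In EMT, transcription factors of the Snail, Zeb and Twist families repress Cdh1 and other epithelial genes by binding E-box motifs, while cells gain N-cadherin and the intermediate filament protein vimentin (Vim). In the mouse embryo the epiblast is an epithelium, and its cells undergo EMT when they leave through the primitive streak at gastrulation. Epcam encodes a surface adhesion protein of epithelia, and Ocln encodes occludin, a membrane protein of tight junctions.

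Total counts ran from 5827093 to 15916800 per sample, and 3 counts corresponded to 0.171 to 0.589 CPM (counts scaled to a common depth), with library totals scaled by TMM over all 21 samples. All 10 epiblast markers had more than 3 counts in at least 1 sample of every group. Their summed level was 2118 to 3085 CPM in FS, 1347 to 2003 CPM in AF, 2101 to 2517 CPM in AFX and 4444 to 7604 CPM over the 9 epiblasts. In such bulk samples, fewer cells of a type and less RNA per cell cannot be told apart.

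The upstream bases of 3 members are shown because these genes carry epithelial adhesion (Epcam, Ocln) or encode a repressor (Snai1) and differed between groups below. The E-box CACCTG, searched on both strands (CAGGTG on the other), is the form bound by Snail and Zeb proteins. It occurred in the 250 bases before the start of 17.22% of 32851 promoters in the RefSeq table (GRCm38.p6). Capitals mark the motif, and each sequence runs 5′ to 3′ on the strand of the gene.
Epcam, chr17:87635729-87635978, plus strand: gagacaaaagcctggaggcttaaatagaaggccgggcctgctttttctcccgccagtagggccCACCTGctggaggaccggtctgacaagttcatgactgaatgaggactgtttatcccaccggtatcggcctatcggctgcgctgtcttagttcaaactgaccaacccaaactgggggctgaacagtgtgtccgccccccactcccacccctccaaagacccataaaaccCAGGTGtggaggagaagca
Snai1, chr2:167537945-167538194, plus strand: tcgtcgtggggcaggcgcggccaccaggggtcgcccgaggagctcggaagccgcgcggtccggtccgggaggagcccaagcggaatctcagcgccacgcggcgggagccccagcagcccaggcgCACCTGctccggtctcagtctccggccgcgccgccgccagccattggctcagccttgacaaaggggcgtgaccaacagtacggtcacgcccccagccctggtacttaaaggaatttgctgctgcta
Ocln, chr13:100552719-100552968, minus strand: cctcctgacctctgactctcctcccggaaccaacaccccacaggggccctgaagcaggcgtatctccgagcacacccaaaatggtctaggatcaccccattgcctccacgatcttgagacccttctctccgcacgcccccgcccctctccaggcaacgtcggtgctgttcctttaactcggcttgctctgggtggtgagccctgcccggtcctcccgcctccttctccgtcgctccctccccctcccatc
Epcam held the motif at 2 places, Snai1 at 1 and this Ocln window at 0, while the window of a second Ocln start site held it at 2. Windows of Zeb2, Twist1 and Vim held 0. The table matched 6 of the 10 members, and Cdh1, Cdh2, Snai2 and Zeb1 were not matched. These matches describe letters and not binding, and no binding was measured.

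Cdh1 and Epcam were among the 3 most abundant members per length in every group. The 10 genes lie on chromosomes 2 (Snai1, Vim, Zeb2), 8 (Cdh1), 12 (Twist1), 13 (Ocln), 16 (Snai2), 17 (Epcam) and 18 (Cdh2, Zeb1) in GENCODE M21 (GRCm38). Cdh1 spans chr8:106603351-106670246 and Vim chr2:13573927-13582826, both on the plus strand, and exon lengths there include untranslated parts. Per kilobase of exon, E6.0 epiblasts had Cdh1 at 150 and Epcam at 130 CPM per kb, against 5.47 for Vim, 2.02 for Cdh2 and 0.133 for Zeb1. FS cells had Epcam at 95.5, Cdh1 at 50.8, Vim at 42.2, Cdh2 at 6.90 and Zeb1 at 4.15 CPM per kb. In AF, Vim was highest at 115 CPM per kb, followed by Cdh1 at 72.5 and Epcam at 63.2, and in AFX Vim (87.9) again stood above Epcam (59.5) and Cdh1 (43.9). Snai1, Snai2, Twist1, Zeb1, Zeb2 and Ocln had means under 5 CPM per kb in all groups.

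**Figure D1:**
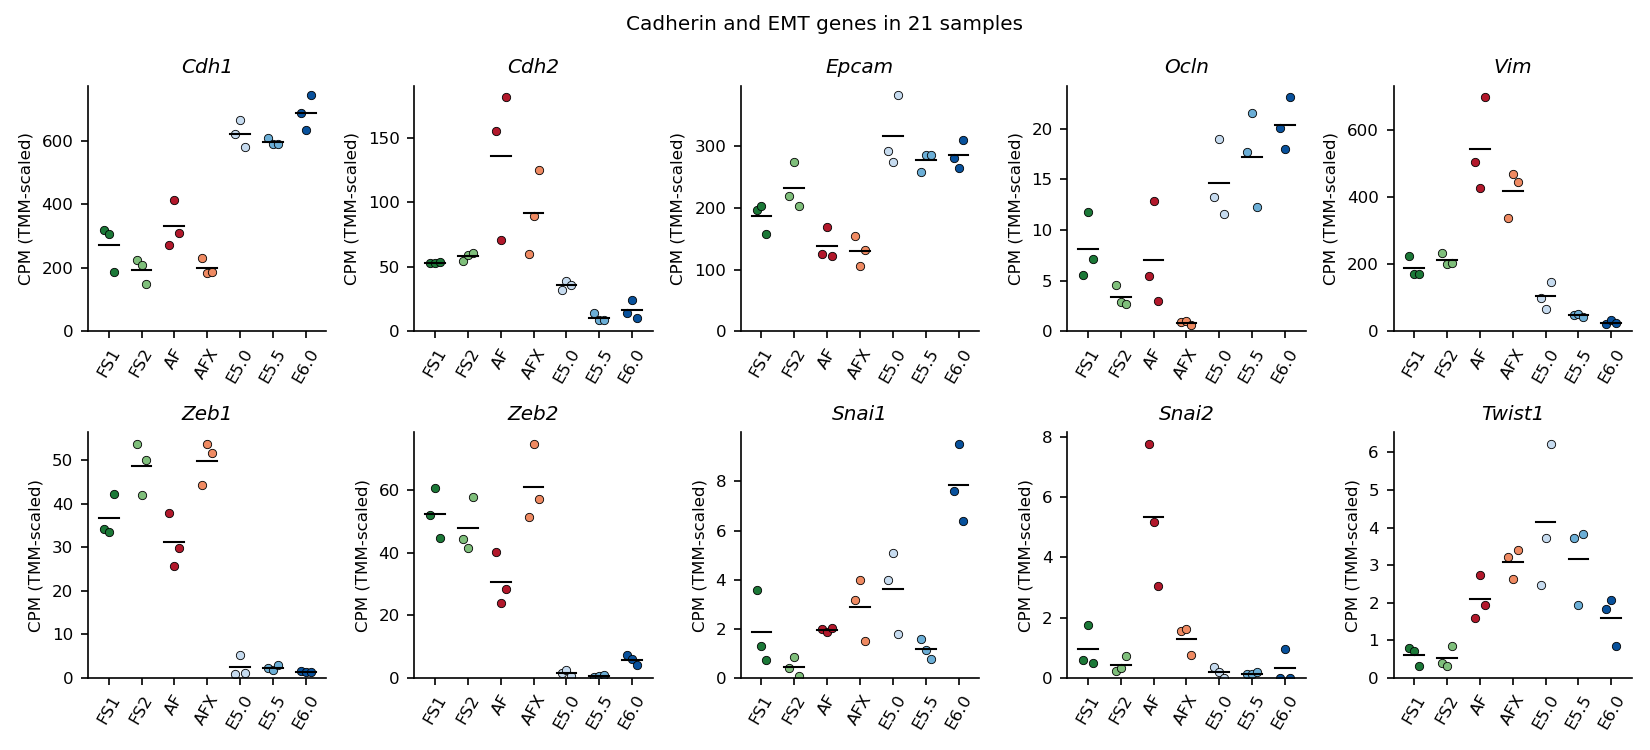
TMM-scaled CPM (linear axis from 0) of the 10 genes in the 21 samples, 3 per group: points are samples and bars are group means. Cdh1 lay at or above 582 CPM in every epiblast and at or below 413 CPM in every culture, while Zeb1 lay at or below 5.30 CPM in every epiblast and at or above 25.7 CPM in every culture.

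The first question was how the cultured cells stand against the epiblast. All 3 cultures had less Cdh1, Epcam and Ocln RNA than E6.0 epiblasts and more Cdh2, Vim, Zeb1 and Zeb2 RNA. The Snail and Twist genes did not follow one direction: Snai1 was lower in FS and AF and did not pass in AFX, Snai2 was higher in AF, and Twist1 was lower in FS.

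In FS against E6.0, 9 of 10 members passed the edgeR quasi-likelihood test (adjusted p under 0.05 over all genes tested), 4 higher and 5 lower. Of all tested genes 38.9% passed, 20.1% higher and 18.9% lower. In AF the count was 9 (5 higher and 4 lower), where 35.2% of all genes passed (18.1% higher and 17.1% lower). In AFX it was 7 (4 higher and 3 lower), where 32.8% passed (17.1% higher and 15.8% lower). FS against E5.5 gave 8 (4 higher and 4 lower), where 43.8% passed (23% higher and 20.8% lower). The median log2 fold change of the 10 members was 0.24, 1.40, 1.41 and 1.00 in these 4 comparisons in turn, beside 0.10, 0.08, 0.09 and 0.08 over all genes tested. The comparisons with E6.0 share its 3 embryos.

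Cdh1 was at 688, 634 and 744 CPM in the 3 E6.0 epiblasts and at 608, 589 and 591 CPM at E5.5. In FS its lowest, median and highest levels were 150, 216 and 320 CPM, in AF it was at 272, 413 and 310 CPM, and in AFX at 231, 185 and 187 CPM. No culture reached the lowest epiblast. Against E6.0, Cdh1 was lower, with log2 values of -1.57 ± 0.17 (SE) in FS (2.96-fold, adjusted p = 7.04e-07), -1.05 ± 0.21 in AF (2.07-fold, 0.00053) and -1.78 ± 0.21 in AFX (3.42-fold, 3.32e-06). The order of mean levels was E6.0 (688 ± 54.9 CPM, SD), E5.0 (623 ± 41.1), E5.5 (596 ± 10.3), AF (332 ± 72.9), FS (232 ± 66.9) and AFX (201 ± 26.3). The ranges of neighbours in this order overlapped, apart from the step from E5.5 to AF.

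Cdh2 was at 13.9, 24.3 and 10.6 CPM in the E6.0 epiblasts. Its levels in FS ran from 52.8 to 61.0 CPM with a median of 54.1, in AF they were 155, 70.5 and 181 CPM, and in AFX 59.8, 89.0 and 125 CPM. All cultures thus lay above all E6.0 epiblasts, and the 6 FS samples were close together while AF and AFX passages differed widely. The log2 fold changes against E6.0 were 1.76 ± 0.30 in FS (3.39-fold, adjusted p = 0.000137), 3.05 ± 0.33 in AF (8.26-fold, 1.8e-06) and 2.48 ± 0.33 in AFX (5.56-fold, 1.82e-05).

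The ratio of the cadherins within a sample, per length, was 1.15, 2.18 and 0.812 Cdh2 per 100 Cdh1 in the E6.0 epiblasts, and 1.29, 0.828 and 0.850 at E5.5. At E5.0 it was 2.94, 3.33 and 3.53. In FS1 it was 9.42, 9.80 and 16.2 (passages 10, 11 and 18) and in FS2 13.9, 16 and 23.0 (passages 12, 13 and 16). AF gave 32.4, 9.68 and 33.2 and AFX 14.7, 27.3 and 38.0. Every culture therefore had more N-cadherin RNA relative to E-cadherin RNA than every epiblast, yet Cdh1 remained the larger of the pair in all 21 samples. For Vim per 100 Cdh1, the ranges were 2.84 to 5.23 at E6.0, 54.0 to 131 in FS, 99.8 to 217 in AF and 141 to 245 in AFX. These ratios are descriptions, with no test.

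**Figure D2:**
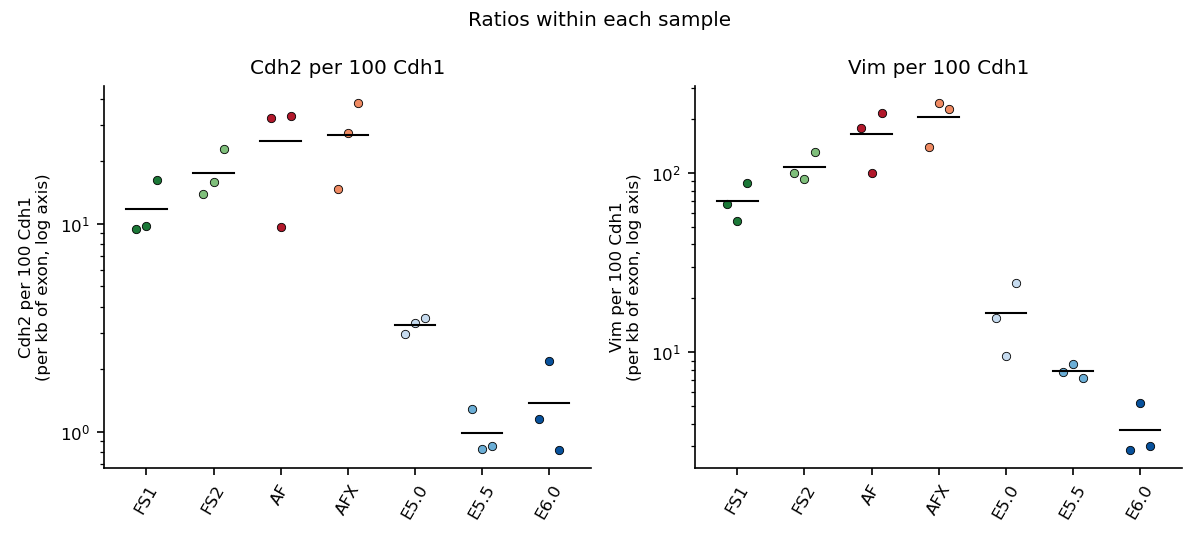
Cdh2 and Vim per 100 Cdh1 in each sample, per kilobase of exon, on logarithmic axes, with points for samples and bars for group means (3 samples per group). The lowest cultured Cdh2 ratio, 9.42 in an FS1 sample, lies above the highest epiblast ratio, 3.53 at E5.0.

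Epcam was at 281, 265 and 311 CPM at E6.0. In FS its range was 158 to 275 CPM (median 203), which overlapped E6.0, while AF (126, 169 and 122 CPM) and AFX (154, 106 and 132 CPM) lay below all epiblasts. The differences from E6.0 were -0.45 ± 0.15 on the log2 scale in FS (adjusted p = 0.0182), -1.04 ± 0.17 in AF (2.05-fold, 7.93e-05) and -1.13 ± 0.17 in AFX (2.18-fold, 4.07e-05). The FS value lost its call under total-count scaling (-0.17), with FS2 alone and without the third E6.0 embryo, and against E5.5 the FS value of -0.40 ± 0.15 (0.0283) was lost under total-count scaling (-0.15), with FS2 alone, with the filter at 5 CPM and without FS1 passage 18 or E5.5 embryo 2 or 3.

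Ocln was at 20.1, 18 and 23.1 CPM at E6.0 and at 0.939, 1.00 and 0.582 CPM in AFX, with FS (2.67 to 11.8 CPM, median 5.07) and AF (5.43, 12.8 and 2.97 CPM) between them. None of the cultured samples reached the E6.0 range. The log2 fold changes were -1.83 ± 0.39 in FS (3.57-fold, adjusted p = 0.000849), -1.52 ± 0.47 in AF (2.86-fold, 0.0161) and -4.59 ± 0.57 in AFX (24.1-fold, 5.02e-06). The AF call was lost without AF passage 14 (0.0627) or 16 (0.0744) or E6.0 embryo 3 (0.0508), and without AF passage 15 the value was -2.29. The FS value was -1.32 with FS1 alone and -2.59 with FS2 alone.

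Vim was at 20.2, 34.4 and 23.2 CPM at E6.0. FS samples held 170 to 233 CPM (median 202), AF 505, 427 and 697 CPM, and AFX 337, 469 and 445 CPM. The FS range lay above every epiblast, E5.0 included, and below every EpiSC sample. Against E6.0 the log2 fold changes were 2.94 ± 0.24 in FS (7.69-fold, adjusted p = 2.67e-08), 4.38 ± 0.27 in AF (20.8-fold, 5.75e-10) and 4.0 ± 0.27 in AFX (1.96e-09).

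Zeb1 and Zeb2, zinc finger repressors of Cdh1, were higher in all 3 cultures. Zeb1 was at 1.44, 1.38 and 1.28 CPM at E6.0 and at 33.5 to 53.7 CPM in FS (median 42.1), which is 4.95 ± 0.37 on the log2 scale (adjusted p = 3.19e-09). In AF it was 4.5 ± 0.39 (22.6-fold, 2.17e-08) and in AFX 5.18 ± 0.39 (36.2-fold, 3.3e-09). The groups did not overlap. Zeb2 was at 7.35, 6.06 and 4.05 CPM at E6.0 but at 0.226, 0.459 and 0.746 CPM at E5.5, from 2, 4 and 8 counts. FS held 41.6 to 60.4 CPM (median 48.3), which was 8.64-fold above E6.0 (log2 3.11 ± 0.27, 1.98e-08) and 99.6-fold above E5.5 (6.64 ± 0.37, 7.74e-12). Zeb2 in AF and AFX was 5.28-fold (1.56e-06) and 10.5-fold (1.68e-08) above E6.0. Exons of Zeb1 share 198 bases with Gm10125 and those of Zeb2 share 658 with Zeb2os, Gm27761 and Mir5129. The sources used here do not state whether counting used strand, so reads of opposite-strand partners cannot be told apart.

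Snai1, an early repressor of Cdh1 at gastrulation, was at 7.62, 9.52 and 6.39 CPM at E6.0. FS samples held 0.0569 to 3.57 CPM (median 0.788), AF 1.97, 1.85 and 2.04 CPM and AFX 3.15, 4.0 and 1.5 CPM, all below E6.0. The log2 fold change was -2.80 ± 0.59 in FS (6.98-fold, adjusted p = 0.000773) and -2.00 ± 0.72 in AF (0.0339), a call lost under total-count scaling and in each of the 6 fits that left out 1 AF passage or 1 E6.0 embryo (adjusted p from 0.0517 to 0.0954). Without FS1 passage 10, which held 3.57 CPM, the FS value was -3.62. It was -2.06 with FS1 alone and -4.27 with FS2 alone, and both passed. The FS2 samples held 1 to 8 counts of Snai1. AFX gave -1.45 ± 0.70 (0.114), which did not pass, but passed in a fit of the 2 groups alone (0.00708). Against E5.5, where Snai1 was at 1.58, 1.15 and 0.746 CPM, FS gave -0.05 (0.963).

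Snai2 was near the counting limit in epiblasts, with 0, 11 and 0 counts at E6.0 and 1, 1 and 2 at E5.5. AF held 7.77, 5.19 and 3.06 CPM, 14.8-fold above E6.0 (log2 3.88 ± 0.95, adjusted p = 0.00293). FS (0.93 ± 0.86, 0.408) and AFX (1.86, 0.131) did not pass, but without the E6.0 embryo that held 11 counts they gave 5.81 (0.0112) and 6.73 (0.00477), and AF gave 8.76. Those values rest on a group with 0 counts and are no measure of size. Twist1, a basic helix-loop-helix factor, was at 1.84, 2.08 and 0.852 CPM at E6.0 and at 0.316 to 0.853 CPM in FS, the ranges overlapping at their ends. Its FS value was -1.46 ± 0.46 (2.75-fold, 0.0144) and was lost without E6.0 embryo 1 or 2 and with FS1 alone. Twist1 in AF (0.40, 0.576) and AFX (0.95, 0.15) did not pass.

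Against E5.5, FS cells had less Cdh1, Ocln and Twist1 RNA and more Cdh2, Vim and Zeb1 RNA. Cdh1 gave -1.36 ± 0.17 on the log2 scale (2.57-fold, adjusted p = 2.54e-06), Cdh2 2.42 ± 0.31 (5.36-fold, 5.63e-06) and Vim 2.05 ± 0.23 (4.14-fold, 6.53e-07). Zeb1 gave 4.2 ± 0.35 (18.4-fold, 5.73e-09), and Ocln -1.59 ± 0.39 (0.00239). Twist1, at 3.73, 1.95 and 3.82 CPM in the E5.5 embryos, gave -2.45 ± 0.44 (5.46-fold, 0.000104), and all FS samples lay below all 3 embryos. Snai2 gave 2.18 ± 1.0 (0.0829) and did not pass. Ocln was -1.07 with FS1 alone and -2.35 with FS2 alone.

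Of related genes in FS against E5.5, 7 of 12 tight junction genes (median -0.81) and 12 of 16 epithelial regulators (-1.53) were lower, with 0 and 1 higher. Mesenchymal genes were 10 higher and 1 lower of 13 (1.44), with Ncam1 at 3.87 ± 0.31. Other cell type markers moved there too. Visceral endoderm markers were 8 of 10 lower and 0 higher, against sums of 46.7 to 85.4 CPM at E5.5. Epiblast markers were 7 of 10 lower and 1 higher, against 5541 to 6000 CPM. Neural markers were 2 of 7 higher and 0 lower, against 75.8 to 104 CPM, and feeder markers 2 of 8 higher and 1 lower, against 12.7 to 21.1 CPM. Extraembryonic ectoderm markers were 2 of 7 lower and 0 higher, and of 9 streak markers 0 passed in edgeR (1 had an unadjusted p under 0.05). At E5.5 Postn was at 0, as were Elf5, Hand1 and Mesp1. The part of these markers in the FS values was not tested.

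**Figure D3:**
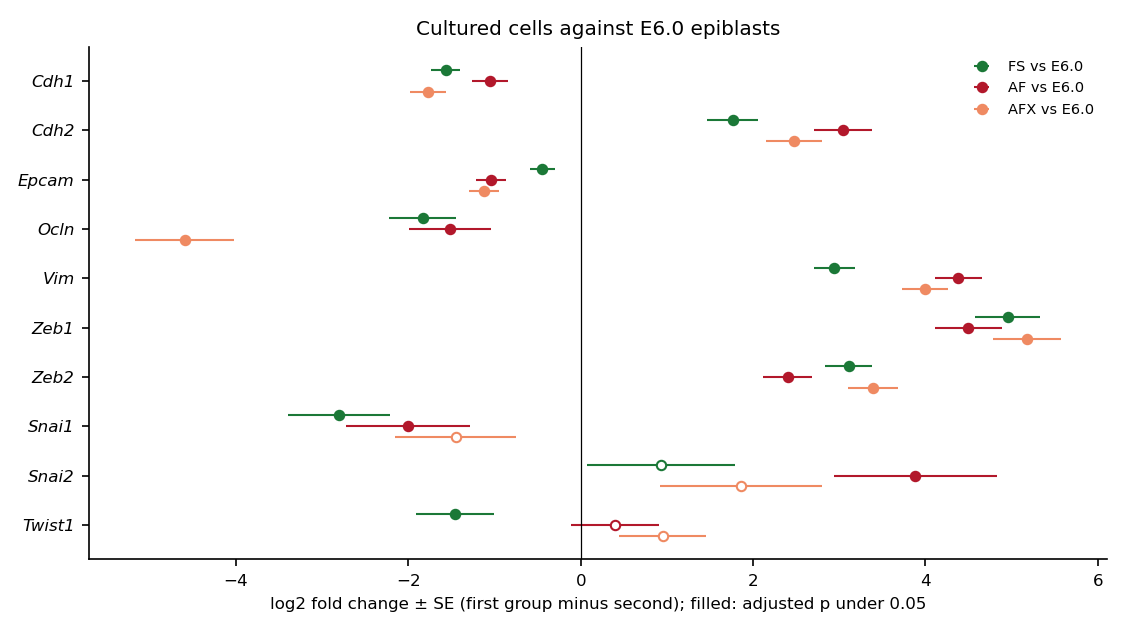
Log2 fold change ± SE of the 10 genes in FS (6 samples), AF and AFX (3 each) against 3 E6.0 epiblasts, which all 3 comparisons share. Filled points have an adjusted p under 0.05. Cdh1, Epcam and Ocln lie left of 0 and Cdh2, Vim, Zeb1 and Zeb2 right of it in each comparison.

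Other epithelial genes were described from lists of the same pathway. In FS against E6.0, 7 of 12 tight junction genes were lower and 0 higher (median log2 fold change -1.08), and 11 of 16 epithelial regulators were lower and 1 higher (-1.38). Examples were the claudin Cldn4 (-3.79 ± 0.52), the repressor of EMT genes Ovol2 (-3.79 ± 0.44) and the vesicle transport gene Rab25 (-3.58 ± 0.56). In AFX the counts were 9 of 12 (-1.47) and 11 of 16 lower (-2.31), with Rab25 at -5.81 ± 0.87 and Cldn7 at -5.12 ± 0.89. In AF they were 3 of 12 (-0.51) and 5 of 16 (-0.50). The epithelial regulator that was higher was Grhl3, by 2.66 ± 0.73 in FS, 2.94 ± 0.79 in AF and 2.17 ± 0.79 in AFX, while its relative Grhl2 was lower in AF (-1.88 ± 0.17). Whether the cultures differ in these distances was tested only between cultures, as given further on.

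**Figure D4:**
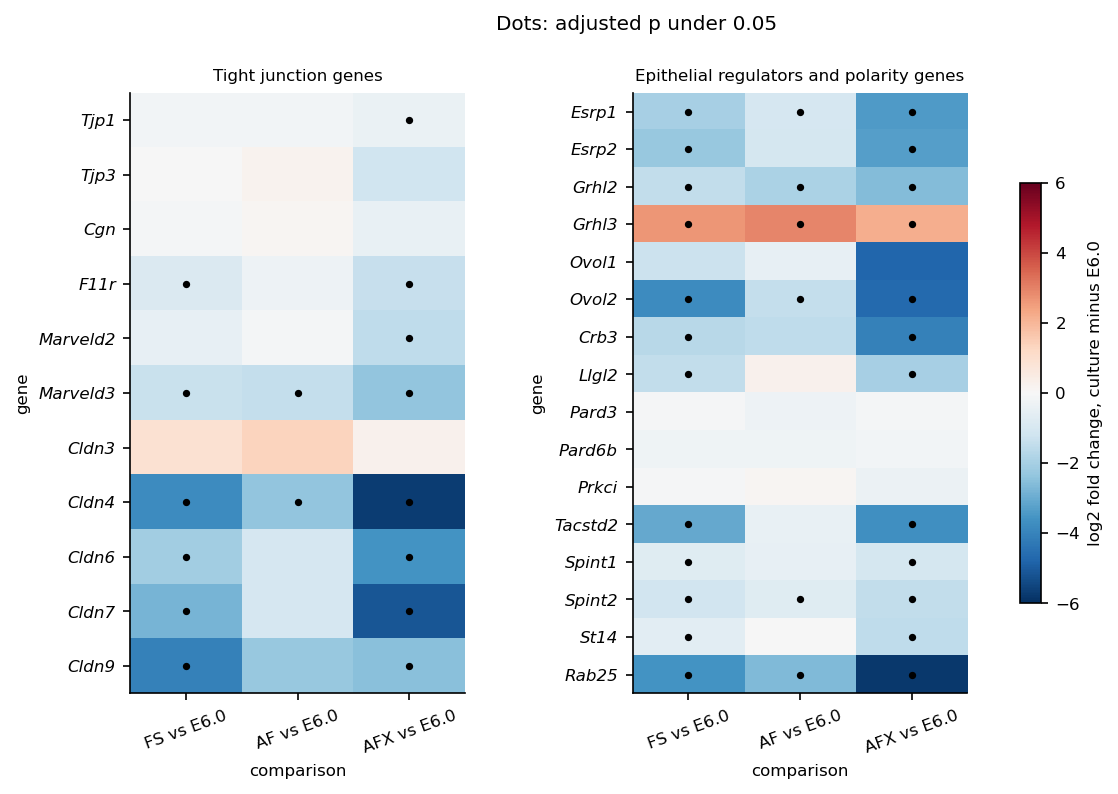
Log2 fold change (colour) of 11 of the 12 tight junction genes and 16 epithelial regulator and polarity genes in FS, AF and AFX against E6.0 epiblasts, with dots for an adjusted p under 0.05. Blue, lower in culture, fills most rows, and Grhl3 is red with a dot in each column.

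Of 13 mesenchymal and matrix genes tested, 7 were higher in FS than at E6.0 and 0 lower (median 1.13), 12 in AF (2.25) and 10 in AFX (1.66). The neural adhesion gene Ncam1 rose by 3.55 ± 0.30 in FS and 3.86 ± 0.32 in AFX, and the matrix gene Tgfbi by 6.53 ± 0.91 in AF. Of 9 other cadherins, 3 were higher and 1 lower in FS, 2 and 0 in AF, and 2 and 1 in AFX. Among them Cdh4 rose by 1.66 ± 0.29 in FS, 1.11 ± 0.32 in AF and 1.91 ± 0.32 in AFX. Catenins and their partners gave 0 higher and 4 lower of 10 in FS, with the nectin Nectin2 at -1.51 ± 0.16, then 1 and 2 in AF and 2 and 5 in AFX. Of the other EMT transcription factors, 1 was higher (Sox9, 2.43 ± 0.51) and 2 lower (Gsc, -3.39 ± 0.76, and Tcf3, -0.55 ± 0.13) of 7 in FS. In AF 3 were higher and 1 lower (median 1.95), with Prrx1 at least 10.1-fold higher, and in AFX 1 was higher (Sox9, 3.02 ± 0.56) and 1 lower (Tcf3, -0.40 ± 0.15).

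The desmosome and keratin genes were 6 higher and 0 lower of 10 in AF (median 1.16), 1 and 4 in FS, and 1 and 2 in AFX. In AF the keratin Krt8 rose by 3.03 ± 0.51 and Krt19 by 6.33 ± 1.18. TGF-beta ligands, receptors and Smads were 2 and 2 of 10 in FS, 6 and 0 in AF, and 4 and 2 in AFX. The ligand Tgfb2 rose by 2.34 ± 0.88, 5.75 ± 0.97 and 4.89 ± 0.95 in turn, and the inhibitory Smad7 was lower in FS (-2.69 ± 0.45) and AFX (-2.41 ± 0.56).

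Markers of the epiblast and of other cell types moved with these comparisons. Of 10 epiblast markers 8 were lower and 0 higher than at E6.0 in each of FS, AF and AFX. The summed neural markers were 286 to 395 CPM in FS, 406 to 463 in AF and 388 to 436 in AFX against 128 to 162 at E6.0, and 2, 2 and 5 of 7 tested passed as higher, with none of the 8 at 0 in all samples of FS, AFX or E6.0 and Neurog2 at 0 in AF. Most of each sum was Nes, the intermediate filament gene nestin, with means of 315 CPM in FS, 428 in AF, 388 in AFX and 141 at E6.0. Feeder fibroblast markers summed to 19.5 to 51.2 CPM in FS, 31.7 to 56.3 in AFX and 232 to 277 in AF against 10.4 to 17.1 at E6.0. Of 8 tested, 1 was higher and 1 lower in FS, 3 and 1 in AFX, and 6 and 0 in AF. Lum was at 0 in FS, and Postn and Lum at 0 at E6.0. Primitive streak markers summed to 35.9 to 153 CPM in FS, 171 to 640 in AF and 81.4 to 168 in AFX against 110 to 333 at E6.0. Of 9 tested, 0 were higher and 4 lower in FS (median -1.33), 1 and 0 in AF, and 0 and 1 in AFX, and none was at 0 in all samples of these groups.

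Visceral endoderm markers summed to 7.25 to 12.9 CPM in FS, 62.9 to 94.9 in AF and 12.9 to 25.7 in AFX against 26.2 to 34.1 at E6.0. Of 10 tested, 0 were higher and 6 lower in FS, 3 and 0 in AF, and 0 and 4 in AFX. Ttr, Apob, Afp and Hnf4a were at 0 in FS, Afp in AF, and Afp and Hnf4a in AFX. Extraembryonic ectoderm markers summed to 3.62 to 12.6 CPM in FS, 22.9 to 37.3 in AF and 11.4 to 15.9 in AFX against 4.9 to 10.7 at E6.0. Of 7 tested, 1 was higher and 1 lower in FS, 4 and 0 in AF (median 2.09), and 1 and 0 in AFX. Elf5 and Esx1 were at 0 in AF, Elf5, Cdx2 and Esx1 in AFX, and Esx1 at E6.0. The part of all these markers in the results for the members and the related genes was not tested.

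The next question was how the genes change between epiblast stages. From E5.0 to E6.0, Cdh2 and Vim fell. Snai1 and Zeb2 rose between E5.5 and E6.0. Cdh1, Epcam, Ocln, Zeb1 and Twist1 did not pass in any stage comparison, and Snai2 did not pass the filter on low counts.

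For E5.5 against E5.0, 2 of 9 tested members passed (0 higher and 2 lower), where 6.82% of all genes passed (3.07% higher and 3.75% lower). For E6.0 against E5.5 the count was 2 (2 higher and 0 lower), where 4.43% passed (1.89% higher and 2.54% lower). For E6.0 against E5.0 it was 3 (1 higher and 2 lower), where 21.8% passed (10.2% higher and 11.6% lower). The medians of the 9 members were -0.40, 0.20 and -0.17, beside -0.01, -0.02 and -0.02 over all genes. These comparisons share stages and so are not independent of each other.

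Cdh1 and Epcam were high at every stage, while Ocln had lower stage means of 14.6 to 20.4 CPM. Cdh1 was at 623, 665 and 582 CPM in the E5.0 embryos, and E6.0 against E5.0 gave 0.13 (adjusted p = 0.336). Epcam was at 292, 275 and 384 CPM at E5.0 and gave -0.17 (0.359). Ocln, at 13.3, 19.0 and 11.6 CPM at E5.0, gave 0.47 (0.242), and the ranges of E5.0 and E6.0 overlapped. Zeb1 was at 0.869, 5.30 and 1.2 CPM at E5.0, where embryo 2 stood above the others, and gave -0.82 (0.479). Twist1 was at 2.48, 3.73 and 6.23 CPM at E5.0 and gave -1.4 ± 0.58 (0.104).

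Cdh2 was at 32.3, 39.0 and 36.2 CPM in the E5.0 embryos (1, 2 and 4) and at 13.8, 8.60 and 8.86 CPM at E5.5. All E5.0 embryos were above all later ones. Cdh2 fell by 1.79 ± 0.30 on the log2 scale to E5.5 (3.47-fold, adjusted p = 0.00391), and E6.0 against E5.0 gave -1.15 ± 0.29 (2.22-fold, 0.0128). The latter call was lost without E6.0 embryo 1 (0.0643) or 3 (0.0656).

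Vim was at 100, 66.1 and 147 CPM at E5.0, 48.7, 52.6 and 43.8 at E5.5, and 20.2, 34.4 and 23.2 at E6.0, with no overlap between stages. It fell by 2.03 ± 0.27 from E5.0 to E6.0 (4.07-fold, adjusted p = 0.00027). The fall to E5.5, -1.13 ± 0.26 (2.19-fold, 0.0255), lost its call without any 1 of the E5.5 embryos or E5.0 embryo 1 or 4 (0.0508 to 0.0906). The step from E5.5 to E6.0, -0.90 ± 0.27 (0.0839), did not pass, but passed with DESeq2 (0.0164), without a filter and in a fit of the 2 groups alone (0.0107). Of 10 mesenchymal and matrix genes tested from E5.0 to E6.0, 2 fell and 1 rose (median 0.24), where 11.6% of all genes fell and 10.2% rose. The matrix genes Fn1 (-2.03 ± 0.36) and Sparc (-1.0 ± 0.22) were lower, and Tagln, a smooth muscle actin-binding gene, rose by 3.09 ± 0.45.

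Visceral endoderm markers, from the layer around the epiblast, also fell between stages. The 11 markers summed to 737, 918 and 318 CPM in the E5.0 embryos, 46.7 to 85.4 CPM at E5.5 and 26.2 to 34.1 CPM at E6.0. None was at 0 in all embryos of a stage, and 8 of 9 tested fell from E5.0 to E6.0. E5.0 embryo 4, with the lowest sum of its stage, had the highest Vim (147 CPM). Epiblast markers summed to 4444 to 4513 CPM at E5.0 and 6055 to 7604 at E6.0, with 3 of 10 higher and 2 lower. Neural markers summed to 48.4 to 75.7 CPM at E5.0 and 128 to 162 at E6.0, with 1 of 3 tested higher and 0 lower. Extraembryonic ectoderm markers summed to 13.8, 43.0 and 7.67 CPM in the E5.0 embryos, and 0 of 4 passed from E5.0 to E6.0. The part of these markers in the stage results was not tested.

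Snai1 was at 3.97, 5.10 and 1.80 CPM at E5.0 and 1.58, 1.15 and 0.746 at E5.5, and rose to 7.62, 9.52 and 6.39 at E6.0. The E6.0 embryos lay above all earlier ones. The rise from E5.5 was 2.75 ± 0.52 (6.73-fold, adjusted p = 0.00781) and was lost without E6.0 embryo 2 (2.59, 0.0566). Against E5.0, Snai1 at E6.0 gave 1.11 ± 0.48 (0.118), which did not pass. Zeb2 was at 1.37, 2.55 and 0.600 CPM at E5.0 and, as given above, under 1 CPM at E5.5. It rose by 3.55 ± 0.70 to E6.0 (11.7-fold, 0.0104), a call lost without E5.5 embryo 2 (0.0517), E6.0 embryo 1 (0.0612) or E6.0 embryo 2 (0.0566). Against E5.0 the rise was 1.96 ± 0.65 (3.9-fold, 0.0435), lost without E5.0 embryo 1 or 4 or any 1 of the E6.0 embryos (0.0714 to 0.162). Snai1 in E5.5 against E5.0 was -1.64 ± 0.52 (0.0758), which passed with DESeq2 (0.0345) and without E5.0 embryo 4 (0.0328).

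The homeobox gene Gsc, of the other EMT factors, rose by 3.79 ± 0.57 between E5.5 and E6.0. Primitive streak markers summed to 110 to 160 CPM at E5.0, 25.4 to 70.9 CPM at E5.5 and 110 to 333 CPM at E6.0. Compared with E5.0, 1 of 7 tested was lower at E5.5 and 1 at E6.0, and 0 were higher. Between E5.5 and E6.0, 0 of 7 passed in edgeR (4 had an unadjusted p under 0.05). Mesp1 was at 0 at E5.5. Their part in the Snai1 and Zeb2 results was not tested. Among epithelial regulators Grhl2 fell by 1.26 ± 0.14 from E5.0 to E6.0 (2.39-fold, adjusted p = 3.76e-05). Of 12 tight junction genes 1 was higher (Marveld3, 1.78 ± 0.46) and 1 lower (Cgn, -0.63 ± 0.14) in the same comparison. P-cadherin, Cdh3, rose by 0.83 ± 0.26, and 3 of 10 catenins and partners rose, such as Ctnnd2 (3.72 ± 0.69).

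The last comparisons were between cultures. FS cells had less Vim and Twist1 RNA and more Epcam RNA than EpiSCs in either medium. Against AF they also had less Cdh2 and Snai2 and more Zeb2, and against AFX more Ocln. Cdh1 did not pass in any comparison between cultures in the reported fit, though it passed in some alternatives.

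In FS against AF, 6 of 10 members passed (2 higher and 4 lower), where 19.5% of all genes passed (8.86% higher and 10.6% lower). In FS against AFX 4 passed (2 higher and 2 lower), where 8.7% of all genes did (3.78% higher and 4.92% lower). AFX against AF also gave 4 (2 higher and 2 lower), where 8.73% passed (4.3% higher and 4.42% lower). Median log2 fold changes of the members were -0.67, -0.51 and -0.24, beside 0.02, 0.00 and 0.01 over all 16052 genes. The comparisons share samples.

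Vim gave a log2 value of -1.45 ± 0.15 in FS against AF (2.73-fold lower, adjusted p = 1.54e-05) and -1.07 ± 0.15 against AFX (2.09-fold lower, 0.000423), with no overlap in either case. Twist1, at most 0.853 CPM in FS, was at 1.60, 2.72 and 1.95 CPM in AF (FS lower 3.66-fold, log2 -1.87 ± 0.39, 0.00373) and at 3.22, 2.62 and 3.41 CPM in AFX (5.37-fold, -2.42 ± 0.38, 0.00099). All FS samples lay below all EpiSC samples, but Twist1 in FS rests on 3 to 15 counts per sample. Snai2 was at 0.241 to 1.77 CPM in FS, below every AF sample (-2.97 ± 0.50, 7.83-fold, 0.00079), and AFX, at 1.54, 1.62 and 0.748 CPM, overlapped it (-0.94 ± 0.55, 0.334). AFX against AF gave -2.03 ± 0.60 for Snai2 (4.08-fold, 0.0467), a call lost without AF passage 14 or 15 or any 1 AFX passage (0.0816 to 0.168).

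Cdh2 was 2.46-fold lower in FS than in AF (log2 -1.3 ± 0.25, adjusted p = 0.00268), and every FS sample lay below the lowest AF passage. Against AFX the value was -0.72 ± 0.25 (0.0997), which did not pass, but passed with DESeq2 (0.0392), in a fit of the 2 groups alone (0.0181) and without AFX passage 14 (-0.95, 0.0356). Cdh1 gave -0.52 ± 0.21 (0.108) against AF and 0.20 (0.644) against AFX. The Cdh1 difference from AF passed with FS2 alone (-0.80, 0.00857), with the FS lines as separate groups (0.0464) and without FS1 passage 10 (0.0412) or 11 (0.048). AFX against AF gave -0.73 ± 0.25 for Cdh1 (0.101), although the samples did not overlap. This Cdh1 difference passed with DESeq2 (0.0366), with the 2 groups alone (0.0377) and with the FS lines as separate groups (0.0456). For Cdh2, AFX against AF gave -0.57 (0.287), which passed without AF passage 15 (-0.89, 0.0229).

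Epcam was higher in FS by 0.58 ± 0.16 than in AF (1.5-fold, adjusted p = 0.0222) and by 0.67 ± 0.17 than in AFX (1.59-fold, 0.0192). The AF call was lost without AF passage 14 (0.51, 0.114) or 16 (0.49, 0.12) and with FS1 alone, and the AFX call without AFX passage 15 (0.12) or 16 (0.0828) and with FS1 alone. Ocln was higher in FS than in AFX by 2.76 ± 0.61 (6.78-fold, 0.0114), without overlap, and AFX against AF gave -3.08 ± 0.66 (8.44-fold lower, 0.0109). The FS call was lost without AFX passage 16 (2.55, 0.071), and with FS2 alone the value was 1.98. AFX against AF gave -2.31 without AF passage 15.

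Zeb2 was higher in FS than in AF by 0.70 ± 0.18 (1.63-fold, adjusted p = 0.0145) and in AFX than in AF by 0.99 ± 0.21 (1.99-fold, 0.0091). The FS call was lost without AF passage 15 (0.55, 0.0609) or 16 (0.0641) and with FS2 alone (0.0542). Zeb1 was higher in AFX than in AF by 0.68 ± 0.19 (1.6-fold, 0.0358), a call lost without AF passage 15 or 16 or any 1 AFX passage (0.0522 to 0.127). In FS against AF it gave 0.45 ± 0.17 (0.0734), which passed in 5 alternatives, without FS1 passage 11 or AF passage 14 among them. Snai1 in FS gave -0.81 ± 0.72 (0.478) against AF and -1.36 ± 0.70 (0.271) against AFX, and the latter passed without FS1 passage 10 (-2.18, 0.0358). With FS2 alone, Snai1 passed against AF (-2.32, 0.0306) and AFX (-2.86, 0.0166). Over all alternatives its values ran from -2.32 to -0.079 against AF and from -2.86 to -0.61 against AFX.

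**Figure D5:**
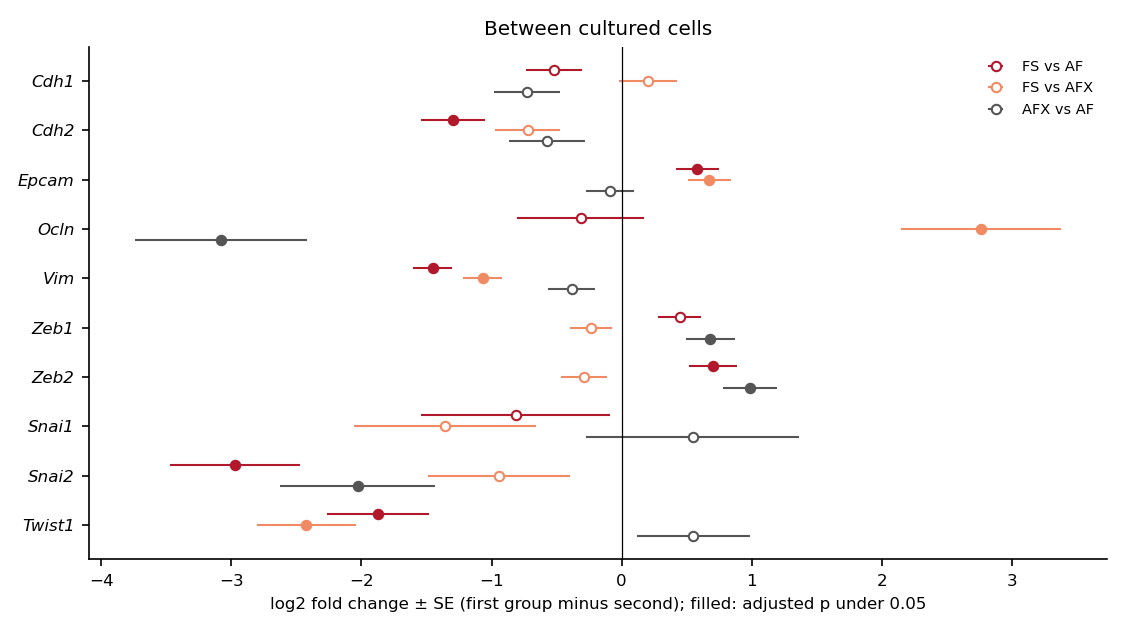
Log2 fold change ± SE of the 10 genes for FS (6 samples) against AF and AFX (3 each) and for AFX against AF, with filled points for an adjusted p under 0.05. Vim and Twist1 lie left of 0 with filled points in both FS comparisons, and Ocln is filled right of 0 against AFX and left of 0 for AFX against AF.

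Related genes were lower in FS than in AF in several lists. In FS against AF, 8 of 10 desmosome and keratin genes were lower and 0 higher (median -1.92), 8 of 13 mesenchymal genes were lower (-1.59; Acta2, smooth muscle actin, at -4.60 ± 0.45 and Tgfbi at -4.44 ± 0.38), and 6 of 10 TGF-beta genes were lower (-1.82). Of 7 other EMT factors 3 were lower, among them Gsc (-5.36 ± 0.90) and Prrx1, which was at least 12.1-fold lower in FS. Of the catenins and partners 5 of 10 were lower and 1 higher (-0.58), with the actin linker Vcl at -1.06 ± 0.15. Of 8 other cadherins 1 was higher and 0 lower in FS than in AF (0.29), Cdh10 (1.81 ± 0.34), and 1 and 0 in AFX against AF (0.64), again Cdh10 (1.43 ± 0.37). FS against AFX gave 0 higher and 1 lower (-0.04), Cdh6 (-3.44 ± 0.85).

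In AFX against AF, 5 of 11 tight junction genes (-1.08), 5 of 14 epithelial regulators (-1.15) and 4 of 10 desmosome genes (-1.89) were lower and 0 higher, with Cldn7 at -4.14 ± 1.06, the splicing regulator Esrp1 at -2.41 ± 0.39 and the desmoglein Dsg2 at -2.19 ± 0.25. In the same comparison 5 of 13 mesenchymal and matrix genes were lower and 1 higher (-1.36), with the receptor Fgfr1 at 0.57 ± 0.13. Other EMT factors gave 2 of 7 lower and 0 higher (-1.86), catenins and partners 4 of 10 lower and 2 higher (-0.16), and TGF-beta genes 1 of 10 lower and 0 higher (-0.80). Of the tight junction genes 2 of 11 and of the epithelial regulators 3 of 14 were lower in FS than in AF, and 0 higher. FS against AFX gave 0 of 11 tight junction genes past the edgeR threshold (6 at an unadjusted p under 0.05; median 1.05), and 2 of 14 epithelial regulators were higher, Grhl2 (1.11 ± 0.18) and Esrp1 (1.40 ± 0.35), and 0 lower. There 3 of 13 mesenchymal genes were lower in FS and 0 higher (-0.37), as were 1 of 7 other EMT factors (-0.59) and 1 of 10 TGF-beta genes (-0.49), while catenins and partners gave 2 of 10 lower and 1 higher (-0.07) and desmosome and keratin genes 1 lower and 1 higher (-0.15).

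Markers of other cell types also moved with the comparisons between cultures. Feeder fibroblast markers summed to 232 to 277 CPM in AF against 19.5 to 51.2 in FS and 31.7 to 56.3 in AFX. In FS 7 of 8 tested were lower than in AF, such as the collagen Col3a1 (0.488 against 78.3 CPM), and in AFX 7 were lower and 1 higher. Against AFX, 2 of 8 were lower in FS, Col3a1 (-3.02 ± 0.68) and Col1a2 (-1.1 ± 0.30), each with overlapping samples. Lum was at 0 in FS. The visceral endoderm sums given above were highest in AF, where 4 of 4 tested were higher than in FS and 3 of 4 higher than in AFX. In FS against AFX 1 of 4 was lower, Gata6, although its AFX passages varied widely (2.42 ± 3.31 CPM, SD, n = 3) and overlapped FS. Of the streak markers, also highest in summed level in AF, 4 of 9 were lower in FS and 1 in AFX than in AF, and 0 passed in edgeR in FS against AFX (2 had an unadjusted p under 0.05). Of the extraembryonic ectoderm markers 3 of 5 were lower in FS and 3 in AFX than in AF, and 0 passed in FS against AFX (3 had an unadjusted p under 0.05).

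Neural markers summed to less in every FS sample than in any AF sample, and 1 of 7 was lower in FS, Nes (-0.46 ± 0.11, adjusted p = 0.00875), though the median was 0.88. Against AFX 1 of 7 was lower in FS, Zic1 (-3.36 ± 0.88), with overlapping samples. In AFX against AF 0 of 7 passed in edgeR (3 had an unadjusted p under 0.05; median 2.37). Compared with AF, 4 of 10 epiblast markers were higher and 1 lower in FS, while AFX had 3 higher and 1 lower. FS against AFX gave 0 and 1. Among them the pluripotency gene Sox2 was higher in FS (0.89 ± 0.24) and in AFX (1.27 ± 0.27) than in AF. The part of these markers in the values of the members was not tested.

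The FS lines were compared with each other on the same members. None of the 10 passed in FS2 against FS1 by edgeR (4 had an unadjusted p under 0.05) or by DESeq2, where 3.85% of all genes passed (2.65% higher and 1.2% lower). The widest differences were in Snai1 (-2.24 ± 0.75, adjusted p = 0.122) and Ocln (-1.30 ± 0.46, 0.153), and the median was -0.14 beside -0.02 over all genes. With 1 sample left out, Snai1 ranged from -1.35 (without FS1 passage 10) to -3.1 (without FS2 passage 13), with -1.61 without FS2 passage 16. Among related genes, Cdh10 (1.13 ± 0.19) and Cdh12 (2.56 ± 0.49) were higher in FS2, and the claudins Cldn7 (-2.72 ± 0.56) and Cldn6 (-1.46 ± 0.36) and the desmosomal Dsp (-1.70 ± 0.33) were lower. Mesenchymal and matrix genes gave 2 of 13 higher and 0 lower, and epithelial regulators 1 of 14 higher and 1 lower. Of 8 feeder markers 1 was lower and 0 higher.

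Genes with the most similar pattern were sought by the root mean square distance of centred log2 group means, over 7 groups and 8607 genes. For Cdh1 the nearest were Rara (0.15) and Unc5b (0.15), where the median gene was at 0.74. For Cdh2 they were Lgals1 (0.34), Sfi1 (0.34; uncertain, since the mouse genome holds near-identical copies) and Stard4 (0.34), with a median of 1.24, and for Vim they were Zdhhc9 (0.46), Ahnak (0.47) and B4galt6 (0.50), with a median of 1.53. The groups share libraries across genes, and these distances are descriptions.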

How the data were processed

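Total RNA came from 12 cultured samples and 9 epiblasts and was isolated with a PicoPure kit, per the labels' protocols. The authors deposited 1 table of raw counts per gene, with 1 column per sample. Trim Galore, TopHat2 2.1.0, featureCounts 1.5.0 and mm10 are named per the submitters' processing notes, while their settings and strand use are not given in the sources used here. No batch is given.

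The 10 members and the gene lists were chosen with earlier results of these data known. Of 162 listed genes, 160 were in the table (Afdn and S100a4 were not matched). All 10 members are given, and of every other list up to 2 called genes per direction. The 3 genes most alike in pattern were sought for Cdh1, Cdh2 and Vim, and 2 genes of the lists or searches are not reported here. Genes were filtered with filterByExpr, scaled with TMM, and tested with robust two-sided quasi-likelihood F-tests in edgeR 4.0.16 (R 4.3.3), with Benjamini-Hochberg adjustment over all genes tested and a threshold of 0.05. Cultured comparisons used the 12 cultured samples, stage comparisons the 9 epiblasts, and the rest all 21. SE is the log2 fold change divided by the root of F. Where a group had at most 3 counts in every sample, a bound against 3 counts per sample is given. CPM per kb uses exon lengths of GENCODE M21 (GRCm38). In counts simulated from these samples with 200 changed genes, the FS against AF test recovered 46% of 2-fold and 79% of 4-fold changes, FS against E6.0 45% and 73%, AFX against AF 38% and 73%, and E6.0 against E5.0 31% and 69%. Of the genes called in these simulations, 10 of 135, 7 of 125, 6 of 117 and 7 of 107 in turn were false. The 200 changed genes were a smaller share than was called in the data, so recovery may differ for the reported tests. Alternatives were DESeq2 1.42.0, other filters and scaling, groups alone, lines alone, a replicate block and leaving out each sample.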

Additional observations from a re-analysis of the deposited data

Results flagged for a closer look

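In the 6 FS samples, the FS1 sample of passage 10 stood apart in Snai1 at 3.57 CPM, with the next highest at 1.30 CPM. The FS1 sample of passage 11 stood apart in Snai2 at 1.77 CPM, with the next highest at 0.739 CPM. Both had a gap to the nearest sample larger, as a share of the range, than Dixon's 95% critical value. Chance flags about 1 in 20 groups, and 10 genes were checked. The levels rest on 36 and 15 counts.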

How the results depend on the processing

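Of 54 called member results, 37 were called under every alternative that tested the gene. Alternatives whose filter removed a gene, such as the filter at a mean of 5 CPM, were not counted for it. When 1 sample was left out, the number of members called ranged from 4 to 8 for FS against AF (6 with all samples). It was 2 to 5 for FS against AFX (4) and 2 to 3 for AFX against AF (4). Against E6.0 it was 8 to 9 for FS (9), 7 to 8 for AF (9) and 7 to 8 for AFX (7), and FS against E5.5 gave 7 to 8 (8). Between stages it was 1 to 2 for E5.5 against E5.0 (2), 0 to 2 for E6.0 against E5.5 (2) and 1 to 3 for E6.0 against E5.0 (3). The replicate block gave 2 members for AFX against AF (Snai2 and Ocln), 1 for E5.5 against E5.0 (Cdh2) and 1 for E6.0 against E5.0 (Vim). Same-numbered samples did not deviate together (r from -0.12 to 0.20), not every sample correlated best with its own number, and the block does not stand for a pairing. For FS2 against FS1, no filter gave 3 members (Cdh1, Snai1 and Ocln) and the groups alone gave 1 (Ocln), against 0. A filter at a mean of 5 CPM left 0 for E6.0 against E5.5, since Snai1 and Zeb2 fell below it.

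Values that changed sign were not called in the reported fit. Ocln in FS against AF was 0.19 with FS1 alone, Cdh1 in FS against AFX -0.073 with FS2 alone, and Twist1 in E5.5 against E5.0 0.13 with the replicate block. Snai1 in FS against E5.5 was 0.20 with total-count scaling, chosen after seeing the data, and 0.69 with FS1 alone, where FS2 alone gave -1.51. When single samples were left out, the range was -0.70 to 0.45 for Ocln in FS against AF, -0.86 to 0.24 for Snai1 in FS against E5.5, and -0.73 to 0.11 for Twist1 in FS2 against FS1. For Epcam it was -0.24 to 0.075 in AFX against AF, -0.020 to 0.10 from E5.5 to E6.0, and -0.25 to 0.0083 from E5.0 to E6.0. For Zeb1 it was -0.47 to 1.13 from E5.0 to E5.5 and -1.21 to 0.39 from E5.0 to E6.0, and for Twist1 -0.66 to 0.039 from E5.0 to E5.5. The causes were not tested.

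The number of all genes called moved by over 1.5 times in 6 comparisons. With 1 sample left out it fell to 830 and 820 (without AFX passages 15 and 16) for FS against AFX, where 1397 were called, and to 922 and 732 (without AFX passages 14 and 15) for AFX against AF, where 1401 were called and the replicate block gave 907. For FS2 against FS1 (618) it was 316 to 365 without FS1 passage 11 or any 1 FS2 passage, 1099 with DESeq2, 1298 with no filter and 1045 with the groups alone. For E5.5 against E5.0 (971) it was 371 to 571 without any 1 E5.5 embryo, 421 with the block, 453 with the groups alone, 1590 with DESeq2 and 1659 with no filter. For E6.0 against E5.5 (631) it was 238 to 372 without any 1 embryo of these stages, 1075 with DESeq2, 1107 with no filter and 1445 with the groups alone. For E6.0 against E5.0 (3100) it was 1905 and 2010 without E6.0 embryo 2 or 3. Counts of 3 or fewer in Snai2 and Zeb2 limit their values in epiblasts. Low counts also limit Twist1 in FS (3 to 15 per sample) and Snai1 in FS2 (1 to 8).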
